A study of Mus musculus with 3 samples.

Results

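Oxidative phosphorylation genes of both genomes were followed in mouse colon organoids by droplet sc-RNAseq. Members were taken by symbol from the deposited feature lists, as names starting with Nduf followed by a, b, c, s or v, with Uqcr, with Cox4 to Cox8, with Atp5, or with mt-Nd, mt-Co, mt-Cytb or mt-Atp. Of 103 such symbols, 96 had at least 500 unique molecular identifiers (UMIs, tags that count transcript molecules) over the 3 libraries and are the members. Of these, 83 are encoded in the nucleus and 13 on mitochondrial DNA, out of 10868 features with that many UMIs and 32285 features in all. The 7 symbols under the minimum were Cox8c with no UMI, Cox8b with 1, Cox6a2 and Cox7b2 with 5 each, Cox4i2 with 37, Ndufa4l2 with 85 and Cox6b2 with 225. The member just above it was Cox7a1, with 926 UMIs.

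All organoids came from wild-type colon epithelium and grew in full medium, which holds Wnt, the GSK3 inhibitor CHIR-99021, R-spondin, EGF and Noggin. The groups were untreated organoids, organoids treated with IFN-γ for 24 h and organoids treated for 48 h, with 50 ng/ml mouse IFN-γ per the organoid methods. Each group was 1 library of live sorted cells, and how many mice or cultures went into it is not given in the labels. Without replicates no test was possible, and every interval below is a 95% interval of counting error only.

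The respiratory chain moves electrons from NADH and succinate to oxygen through complexes I to IV and pumps protons across the inner mitochondrial membrane, and complex V, the ATP synthase, uses that gradient to make ATP. Complexes I, III, IV and V are built from subunits of both genomes, and complex II from nuclear subunits alone. Mitochondrial mRNAs are cut from long polycistronic transcripts made inside the organelle and most carry short poly(A) tails, so they can be captured by the poly(A)-primed 3' protocol used here. Colonocytes near the lumen are known for oxidising butyrate as their main fuel.

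Depth per cell differed between the libraries. Cells were kept from 5000 UMIs and 400 genes upward if mitochondrial UMIs made up no more than 15%. That left 1058 in the untreated library, 917 in the 24 h library and 2934 in the 48 h library, with a median of 33550, 68784 and 10772 UMIs per cell and 47243500 to 71077817 UMIs per library. The 15% maximum had removed 20.8% of the untreated barcodes that passed both minima, 6.81% at 24 h and 4.52% at 48 h. Libraries shared at most 4 cell barcodes pairwise. The 6 IFN-γ response genes checked were higher at both times. Summed immune markers lay between 2.79 and 3.98 CPM (UMIs of a gene per 1000000 UMIs of the kept cells) and stromal markers between 0.886 and 2.51 CPM, and Ptprc, Tyrobp, Cd3g, Col3a1, Lum and Col1a1 were at 0 in all 3 libraries. Epithelial markers did move. Goblet markers stood at a log2 ratio of sums of -1.59 at 24 h and -2.11 at 48 h (10 of 10 lower past 0.5 at both). Colonocyte markers stood at -1.31 and -1.49 (9 and 8 of 11 lower). Stem markers stood at -0.94 and -0.30 (8 and 5 of 11 lower) and general epithelial markers at -0.43 and -0.59 (3 of 6 lower at both). Of all features, 34.2% were lower past 0.5 at 24 h and 19.3% at 48 h. S phase markers stood at 0.17 and -0.11, G2/M markers at 0.11 and -0.11 and enteroendocrine markers at -0.35 and -0.88. The 1 tuft marker with at least 500 UMIs stood at 1.68 and 1.65. The nuclear-retained RNAs Malat1, Neat1 and Kcnq1ot1 together stood at 10044, 3310 and 5458 CPM in the untreated, 24 h and 48 h libraries. The part of these markers and RNAs in the results below was not tested.

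The first question was whether the gene sets of both genomes moved together under IFN-γ. At 24 h their sums lay on opposite sides of the untreated library. The 13 mitochondrial members summed to 44185 CPM without treatment (44126 to 44243), 21789 CPM at 24 h (21754 to 21823) and 47676 CPM at 48 h (47613 to 47738). The 83 nuclear members summed to 29503 CPM (29456 to 29551), 34177 CPM (34134 to 34220) and 30636 CPM (30586 to 30686). Over whole libraries the mitochondrial sum was thus lowest at 24 h, and the nuclear sum was highest there. By depth this order did not hold in every bin, as given below. As log2 ratios to the untreated library, the mitochondrial sum stood at -1.02 at 24 h (-1.023 to -1.017) and 0.11 at 48 h (0.107 to 0.112), and the nuclear sum at 0.21 (0.209 to 0.215) and 0.05 (0.051 to 0.058). Both comparisons use the same untreated library. In a bulk sum, fewer cells of a type and less RNA per cell cannot be told apart. The sections by depth and by cluster give the values within cells of like UMI count and of the same cluster.

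Members were counted as higher or lower when the log2 ratio passed 0.5. At 24 h all 13 mitochondrial members were lower, and of the nuclear members 9 were higher and 2 lower. Over the 10868 features, 7.61% were higher and 34.2% lower, with a median log2 ratio of -0.27, beside a median of 0.21 for the nuclear members and -1.21 for the mitochondrial members. At 48 h 1 mitochondrial member was higher and 3 were lower, and 3 nuclear members were higher and 7 lower, where 9.18% of all features were higher and 19.3% lower. The medians at 48 h were -0.09 for all features, 0.02 for nuclear and 0.03 for mitochondrial members. Of the 83 nuclear members, 78 lay above the median of all features at 24 h and 52 at 48 h. Set against the 24 h library, the 48 h library was higher in 13 of 13 mitochondrial members, with a log2 ratio of sums of 1.13, and lower in 9 nuclear members and higher in 0. All features in that comparison were higher in 25.9% and lower in 6.33%, with a median of 0.17. That comparison is of whole libraries, which differ in depth, and its direction turned in some depth bins, as given below.

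**Figure D1:**
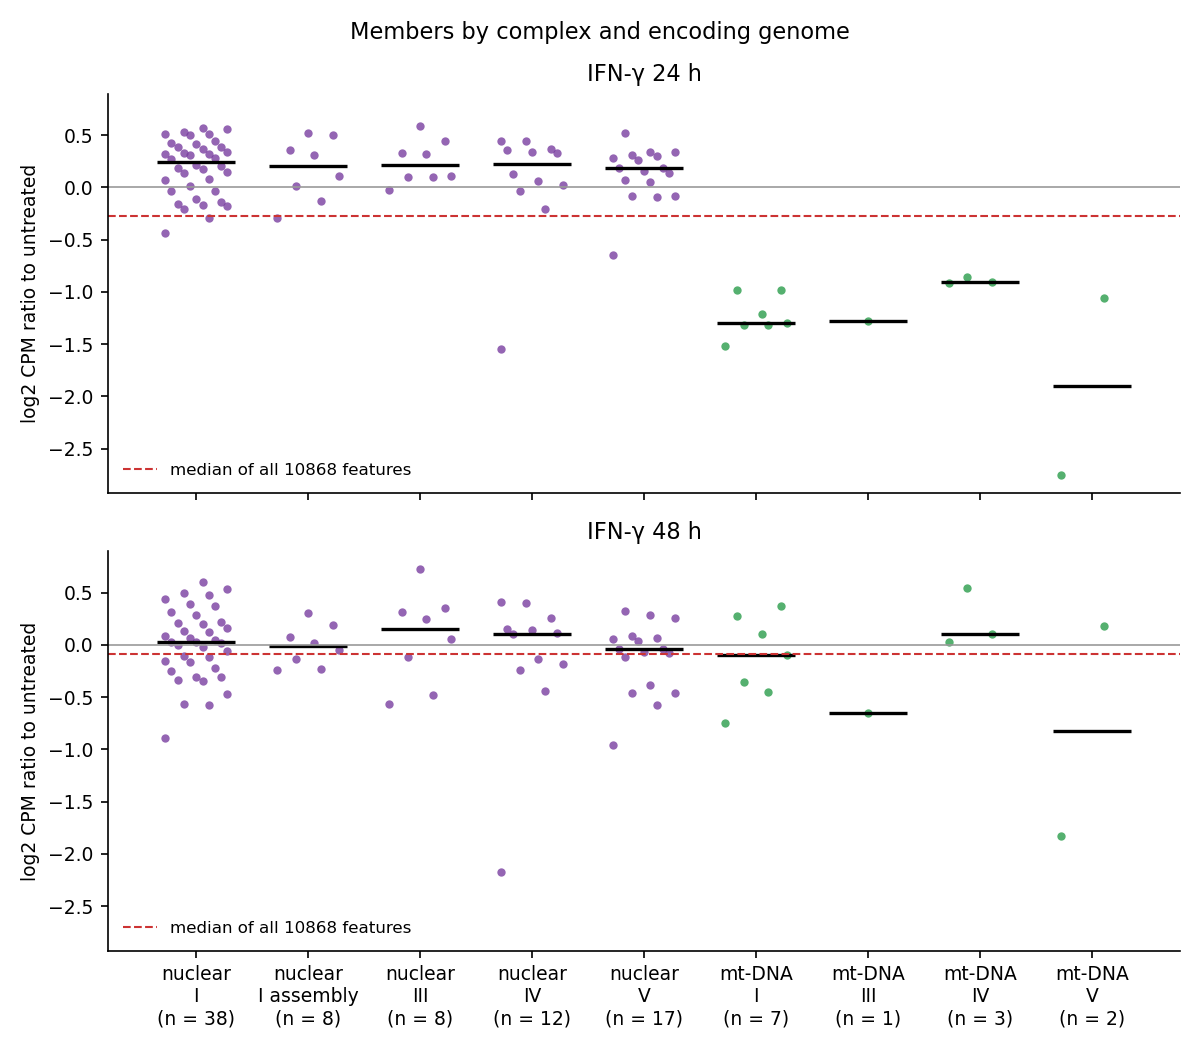
Log2 CPM ratio to untreated (vertical axis) of each of the 96 members (points), by encoding genome and complex, at 24 h (top) and 48 h (bottom). Black bars are medians of the members and the dashed line is the median of 10868 features. At 24 h the mitochondrial members sit between -2.75 and -0.86, while 63 of 83 nuclear members lie above 0. The lone nuclear point far below the others at both times is Cox7a1.

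The nuclear counts depended on the scaling. Scaling by trimmed means (TMM) in place of the total adds 0.45 to every log2 ratio at 24 h and 0.19 at 48 h. Under it 60 nuclear members were higher and 1 lower at 24 h, where 27.3% of all features were higher and 12.8% lower. The 24 h mitochondrial sum stood at -0.57 under it, and 10 of 13 mitochondrial members were lower past the same size. At 48 h 14 nuclear members were higher and 3 lower under TMM, where 16.3% of all features were higher and 12.4% lower. The calls lost were those of mt-Co1 (-0.47), mt-Co2 (-0.46), mt-Co3 (-0.41) and Atp5k (-0.20) at 24 h, and of mt-Cytb (-0.46), Atp5g2 (-0.38), Uqcrfs1 (-0.38), Ndufa1 (-0.39) and Ndufa3 (-0.38) at 48 h. Of the nuclear members, 63 lay above 0 at 24 h with scaling to the total and 81 with TMM, and no mitochondrial member lay above 0 under either. Directions of genes with log2 ratios between -0.45 and 0 at 24 h, or between -0.19 and 0 at 48 h, therefore turn with the scaling.

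Values below are given in the order untreated, 24 h and 48 h, and log2 ratios in the order 24 h and 48 h. Among the mitochondrial members, all 7 complex I subunits were lower at 24 h. They are parts of the membrane arm of NADH dehydrogenase, and their sum stood at 11626, 5438 and 12421 CPM (log2 -1.10 and 0.095). mt-Nd1 stood at 4196, 2123 and 5073 CPM (log2 -0.98 and 0.27). mt-Nd2 stood at 3225, 1392 and 3460 CPM (log2 -1.21 and 0.10). mt-Nd4 stood at 2351, 1193 and 2204 CPM (log2 -0.98 and -0.09). Over the whole library the 48 h log2 ratios of these 3 genes did not pass 0.5, but they moved with depth. Over the depth bins described below mt-Nd1 ranged from -0.86 to 0.43 at 48 h and mt-Nd2 from -1.07 to 0.21. mt-Nd4 ranged from -1.08 to -0.10, below untreated in every bin. mt-Nd3 showed the widest swing of the complex I genes, from 665 CPM to 269.8 and then 859.5 CPM (log2 -1.30 and 0.37). The genes mt-Nd5 (760.3, 305.6 and 555 CPM, log2 -1.31 and -0.45), mt-Nd6 (80.7, 32.3 and 63.1 CPM, log2 -1.32 and -0.35) and mt-Nd4l (348.7, 121.5 and 207.2 CPM, log2 -1.52 and -0.75) stayed below untreated at 48 h. mt-Nd6 is the one member read from the other strand of the mitochondrial genome.

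mt-Cytb encodes cytochrome b, the only complex III subunit made in the organelle (chrM:14145-15288, plus strand). It stood at 5235, 2160 and 3344 CPM. Its log2 ratios were -1.28 (-1.286 to -1.268) and -0.65 (-0.656 to -0.638), so it was lower past 0.5 at both times, the call at 48 h being lost under TMM at -0.46.

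The 3 mitochondrial subunits of complex IV form the catalytic core of cytochrome c oxidase, and their sum stood at 20258, 10911 and 24198 CPM (log2 -0.89 and 0.26). mt-Co1 stood at 6771, 3586 and 6891 CPM (log2 -0.92 and 0.03) and mt-Co2 at 6091, 3244 and 6535 CPM (log2 -0.91 and 0.10). mt-Co3 (chrM:8607-9390, plus strand) went from 7397 CPM to 4081 CPM and then 10771 CPM, with log2 ratios of -0.86 and 0.54. With scaling to the total it was the only mitochondrial member lower past 0.5 at 24 h and higher past 0.5 at 48 h, and the difference between the times was not tested. Under TMM its call at 24 h was lost at -0.41, and mt-Nd3 was the only such member, at -0.86 and 0.56. Over the depth bins described below mt-Co3 ranged from -0.62 to 0.57 at 48 h.

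Complex V has 2 mitochondrial subunits, mt-Atp6 of the proton channel and the small mt-Atp8, which summed to 7066, 3279 and 7712 CPM (log2 -1.11 and 0.13). mt-Atp6 stood at 6697, 3225 and 7608 CPM, log2 -1.05 and 0.18. mt-Atp8 stood at 368.5, 54.7 and 104 CPM, log2 -2.75 (-2.803 to -2.702) and -1.82 (-1.871 to -1.779), the lowest ratio of any member at 24 h. The 2 genes lie on 1 bicistronic mRNA, so 2 frames annotated on the same transcript had unlike ratios. Their frames share 43 bases, chrM:7927-7969, plus strand, and mt-Nd4l and mt-Nd4, also on 1 mRNA, share 7 bases, chrM:10167-10173. Both overlaps are shown because a read inside them fits 2 genes at once. They are read from GENCODE M21 transcripts on GRCm38, with the shared bases in capitals and 10 bases on each side.
mt-Atp8/mt-Atp6: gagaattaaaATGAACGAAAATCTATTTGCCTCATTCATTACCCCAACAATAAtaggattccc
mt-Nd4l/mt-Nd4: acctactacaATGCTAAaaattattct

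In each pair the shared stretch begins with the start codon of the downstream frame and ends with the stop codon of the upstream one. The upstream frame ends 638 bases before the end of mt-Atp6 in the first pair and 1371 bases before the end of mt-Nd4 in the second, while the protocol primes at poly(A). The upstream gene had the lower log2 ratio of its pair at both times (mt-Atp8 against mt-Atp6, mt-Nd4l against mt-Nd4). The part of read position in these ratios was not tested.

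**Figure D2:**
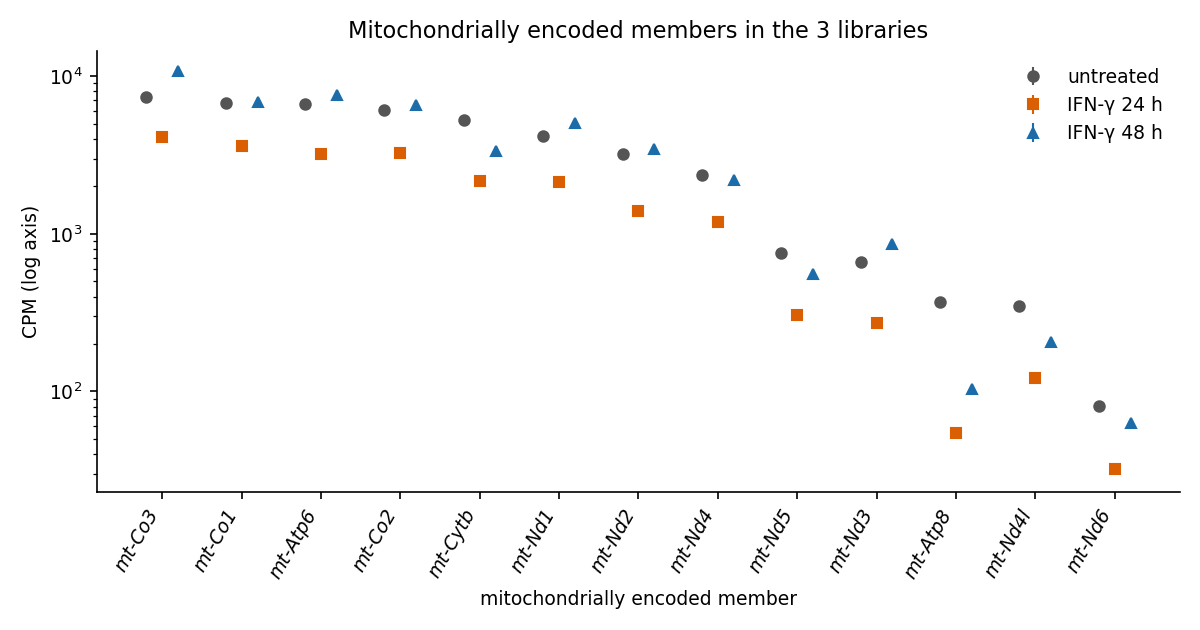
Level in CPM (log axis) of the 13 mitochondrial members in the untreated, 24 h and 48 h libraries, ordered by untreated level, with 95% counting intervals that are mostly smaller than the symbols. Squares (24 h) are the lowest of the 3 for every gene. Triangles (48 h) lie above circles (untreated) for 7 genes and below them for 6, with mt-Atp8 the farthest below.

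Nuclear complex I is represented by 38 members, which include the catalytic core and the accessory subunits. Their sum went from 8733 CPM to 10300 CPM at 24 h (log2 0.24, 0.233 to 0.243) and 9224 CPM at 48 h (log2 0.08, 0.073 to 0.085). At 24 h 6 of 38 were higher, Ndufa4 among them, and 0 lower, where 7.61% of all features were higher and 34.2% lower. At 48 h 2 were higher and 3 lower, both smaller shares than the 9.18% and 19.3% of all features. Ndufa4, the most abundant symbol of this group and now counted as a complex IV subunit, stood at 649.3, 936 and 752.6 CPM (log2 0.53 and 0.21). Ndufb9, an accessory subunit of the membrane arm, stood at 545.2, 531.1 and 551.7 CPM (log2 -0.04 and 0.02). Ndufa5, an accessory subunit of the matrix arm, had the highest ratio at 24 h, with 218.3, 323.2 and 283.3 CPM (log2 0.57 and 0.38). Ndufs6, an accessory subunit that binds zinc, had the highest ratio at 48 h, with 237.4, 305.5 and 360.7 CPM (log2 0.36 and 0.60). Ndufb1-ps had the lowest at both times, with 177.7, 131.3 and 95.8 CPM (log2 -0.44 and -0.89). It is annotated as a bidirectional promoter lncRNA in GENCODE M21 (chr12:101968090-101977068, minus strand), not as protein coding.

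The 8 Ndufaf members are assembly factors that help build complex I and are not part of it. Their sum stood at 386.5, 442 and 380.1 CPM (log2 0.19 and -0.02). Of the 8, 1 was higher past 0.5 at 24 h, where 7.61% of all features were, and 0 passed 0.5 at 48 h. That 1 was Ndufaf8, with 64, 91.7 and 67.3 CPM (log2 0.52 and 0.07). Ndufaf3 stood at 36.9, 52.2 and 45.7 CPM (log2 0.50, just under the threshold, and 0.31), and Ndufaf4 at 93.1, 115.1 and 90.0 CPM (log2 0.31 and -0.05). Ndufaf2 (93.9, 76.3 and 80.0 CPM, log2 -0.30 and -0.23) and Ndufaf7 (29.2, 26.7 and 24.8 CPM, log2 -0.13 and -0.24) were the lowest.

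Complex III passes electrons from ubiquinol to cytochrome c. Its 8 nuclear members gave the highest nuclear ratio of sums at both times, from 3357 to 4125 CPM at 24 h (log2 0.30, 0.289 to 0.306) and 3839 CPM at 48 h (log2 0.19, 0.184 to 0.203). Uqcrq, a small subunit (chr11:53427922-53430831, minus strand), had the highest ratio of all 96 members at both times. It stood at 548.1, 823.4 and 905.6 CPM, log2 0.59 (0.566 to 0.608) and 0.72 (0.703 to 0.746). Uqcr10 stood at 554.8, 756.9 and 709.7 CPM (log2 0.45 and 0.36) and Uqcrh, the hinge protein, at 646.8, 693.3 and 672.2 CPM (log2 0.10 and 0.06). Other subunits of the complex were below untreated at 48 h. The Rieske iron-sulphur protein Uqcrfs1 stood at 294.9, 318.6 and 199 CPM (log2 0.11 and -0.57), and the core protein Uqcrc2 at 268.1, 263.7 and 192.5 CPM (log2 -0.02 and -0.48). The other core protein, Uqcrc1, went the other way at 48 h, with 201.6, 215.5 and 251.1 CPM (log2 0.10 and 0.32).

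The 12 nuclear members of complex IV surround and regulate its mitochondrial core. Their sum stood at 7452, 8756 and 8082 CPM (log2 0.23 and 0.12). Groups follow the symbols, so Ndufa4 (log2 0.53 at 24 h) is counted with complex I. No member of the 12 was higher past 0.5 at either time, where 7.61% and 9.18% of all features were. Only 1, Cox7a1, was lower at both, where 34.2% of all features were lower at 24 h and 19.3% at 48 h. Cox4i1, the most abundant nuclear member of all, stood at 1246, 1358 and 1657 CPM (log2 0.13 and 0.41), and Cox8a at 1051, 1328 and 1163 CPM (log2 0.34 and 0.15). Cox7a2 had the highest ratio of the group at 24 h, with 563.1, 768.2 and 744.7 CPM (log2 0.45 and 0.40).

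Cox7a1 is the form of its subunit known from heart and skeletal muscle (chr7:30184144-30186078, plus strand). It stood at 10.9, 3.74 and 2.43 CPM, log2 -1.55 (-1.765 to -1.334) and -2.17 (-2.472 to -1.876). Its abundant relatives did not share this: Cox7a2 is given above, and Cox7a2l, which helps join complexes III and IV, stood at 346.8, 300.1 and 306.5 CPM (log2 -0.21 and -0.18). Other muscle, lung or testis forms were near the limit of detection, with Cox4i2 at 0.341, 0.141 and 0.212 CPM and Cox6b2 at 2.17, 0.985 and 0.995 CPM. Their counterparts Cox6a1 (381.2, 387 and 322.5 CPM) and Cox6b1 (539.5, 675.9 and 600.6 CPM) carried nearly all UMIs of their sets. Cox6a2, Cox7b2, Cox8b and Cox8c had too few UMIs for a ratio.

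Complex V gave the lowest nuclear ratio of sums at both times. Its 17 members went from 9575 CPM to 10555 CPM at 24 h (log2 0.14, 0.135 to 0.146) and 9112 CPM at 48 h (log2 -0.07, -0.078 to -0.066). The catalytic F1 subunits were close to untreated, with Atp5b at 1050, 991 and 999.2 CPM (log2 -0.08 and -0.07) and Atp5a1 at 806.9, 757.1 and 763.8 CPM (log2 -0.09 and -0.08). Atp5k, subunit e of the membrane part (chr5:108433244-108434448, minus strand), was lower at both times, with 449.6, 287.5 and 232.2 CPM, log2 -0.64 (-0.672 to -0.618) and -0.95 (-0.986 to -0.920).

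The genes Atp5g1, Atp5g2 and Atp5g3 encode the same mature c-ring subunit with different import signals. Atp5g1 stood at 788.2, 1128 and 990.1 CPM (log2 0.52 and 0.33). Atp5g2 stood at 467.1, 559.4 and 314.5 CPM (log2 0.26 and -0.57) and Atp5g3 at 458.7, 482.4 and 351.6 CPM (log2 0.07 and -0.38). Over the whole library at 48 h the 3 genes therefore parted, with Atp5g1 above untreated and both others below it. Over the depth bins described below Atp5g1 ranged from 0.22 to 1.54 at 48 h, Atp5g2 from -0.66 to 0.18 and Atp5g3 from -0.39 to 0.52.

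The mitochondrial to nuclear ratio of UMIs within a complex compares molecules counted at their 3' ends. Over whole libraries it was lowest at 24 h in every complex. It was not split by depth for each complex, and over all members its order turned in some of the depth bins described below. It stood at 1.33, 0.528 and 1.35 for complex I, and at 2.72, 1.25 and 2.99 for complex IV. For complex V it was 0.738, 0.311 and 0.846. For complex III it was 1.56, 0.524 and 0.871, the one complex in which the 48 h value did not exceed the untreated value.

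In single cells, the median ratio of mitochondrial to nuclear member UMIs was 1.62 without treatment (quartiles 0.881 and 6.04), 0.646 at 24 h (0.435 and 1.77) and 2.20 at 48 h (0.899 and 4.11). Mitochondrial members outnumbered nuclear members in 69.4%, 31.3% and 70.7% of the cells. After each cell was thinned to 5000 UMIs the medians were 1.59, 0.646 and 2.22. Random thinning leaves the expected shares of each cell unchanged, so these close values say nothing on depth. With a minimum of 10000 UMIs per cell the 48 h median was 0.973, and without the maximum of mitochondrial UMIs the untreated median was 3.82. Barcodes under 2000 UMIs, which no comparison used and whose origin was not tested, had 43838, 42558 and 48369 CPM of nuclear members but only 2103, 1692 and 2533 CPM of mitochondrial members.

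**Figure D3:**
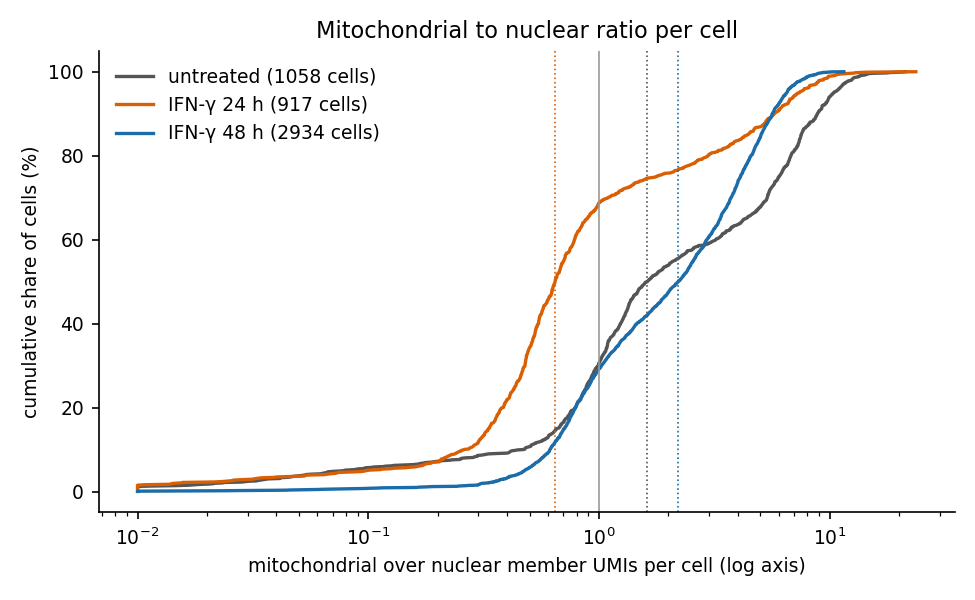
Cumulative share of cells (vertical axis, percent) by mitochondrial over nuclear member UMIs in the cell (log axis), for the kept cells of the 3 libraries (1058, 917 and 2934); cells under a ratio of 0.01 are drawn at 0.01. Dotted lines are the medians of 1.62, 0.646 and 2.20. The 24 h curve lies left of both others through most of its range, and the untreated curve flattens between low-ratio and high-ratio cells.

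Deep cells weigh most in a library sum, so the comparison was repeated with equal weight for every cell. With every cell thinned to 5000 UMIs, the mitochondrial sum stood at 62330, 36741 and 64816 CPM (log2 -0.76 and 0.056). The nuclear sum stood at 25282, 30158 and 28517 CPM (log2 0.25 and 0.17). The directions were those of the unthinned sums. Thinning gives cells equal weight but each keeps its own shares, so these sums do not compare cells of like depth. With cells of at least 10000 UMIs thinned to 10000, the mitochondrial ratios were -0.84 and -0.46, so the sign at 48 h turned.

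Cells were also split at 10000, 20000 and 50000 UMIs. Mitochondrial members took a larger share of cells under 20000 UMIs than of deeper cells in every library. In untreated cells their sum was 79203 CPM at 5000 to 10000 UMIs, 94512 CPM at 10000 to 20000, 62249 CPM at 20000 to 50000 and 33809 CPM above. At 24 h the log2 ratio of the mitochondrial sum in the same bins was -0.17, -0.22, -0.45 and -0.90. It was below 0 in all 4 bins and farthest from 0 in the deepest, which held 571 of the 917 cells at 24 h and 408 of the 1058 untreated cells.

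At 48 h depth changed the result. The log2 ratio of the mitochondrial sum was 0.15 in the shallowest bin, with 1379 of 2934 cells, and -0.77, -1.002 and -0.28 in the 3 deeper bins. The shallowest bin held 9585045 UMIs at 48 h and 1118581 in the untreated library. The 0.11 of the whole library also reflects how UMIs spread over the bins, and is not a mean of the ratios by bin. It turned to -0.21 with a minimum of 10000 UMIs, to -0.36 with a minimum of 20000, to -0.096 without the maximum of mitochondrial UMIs and to -0.070 without clusters 0 and 8, which are described below. In the bin of 20000 to 50000 UMIs, with 772 cells at 48 h and 254 untreated, the mitochondrial sum was 31076 CPM against 62249 CPM. There all 13 mitochondrial members were lower past 0.5, where 35.4% of all features in that bin were. The nuclear sum had log2 ratios of 0.11, 0.21, -0.01 and 0.17 at 24 h and 0.38, 0.87, 0.20 and -0.03 at 48 h, from shallow to deep. In the bin of 10000 to 20000 UMIs at 48 h, 55 of 83 nuclear members were higher past 0.5, where 14.2% of all features were. Between the treated libraries the nuclear sum was 20541, 19512, 28570 and 35083 CPM at 24 h, from shallow to deep. At 48 h it was 24831, 30720, 33014 and 30626.5 CPM, higher in all bins but the deepest. The mitochondrial sum was 70333, 80967.5, 45519.5 and 18140 CPM at 24 h. At 48 h it was 87884, 55521, 31076 and 27925 CPM, lower than at 24 h in the bins of 10000 to 20000 and 20000 to 50000 UMIs. The cells of each bin were compared here whatever their cluster. With medians of 33550, 68784 and 10772 UMIs per cell, a bin also takes different parts of each library.

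**Figure D4:**
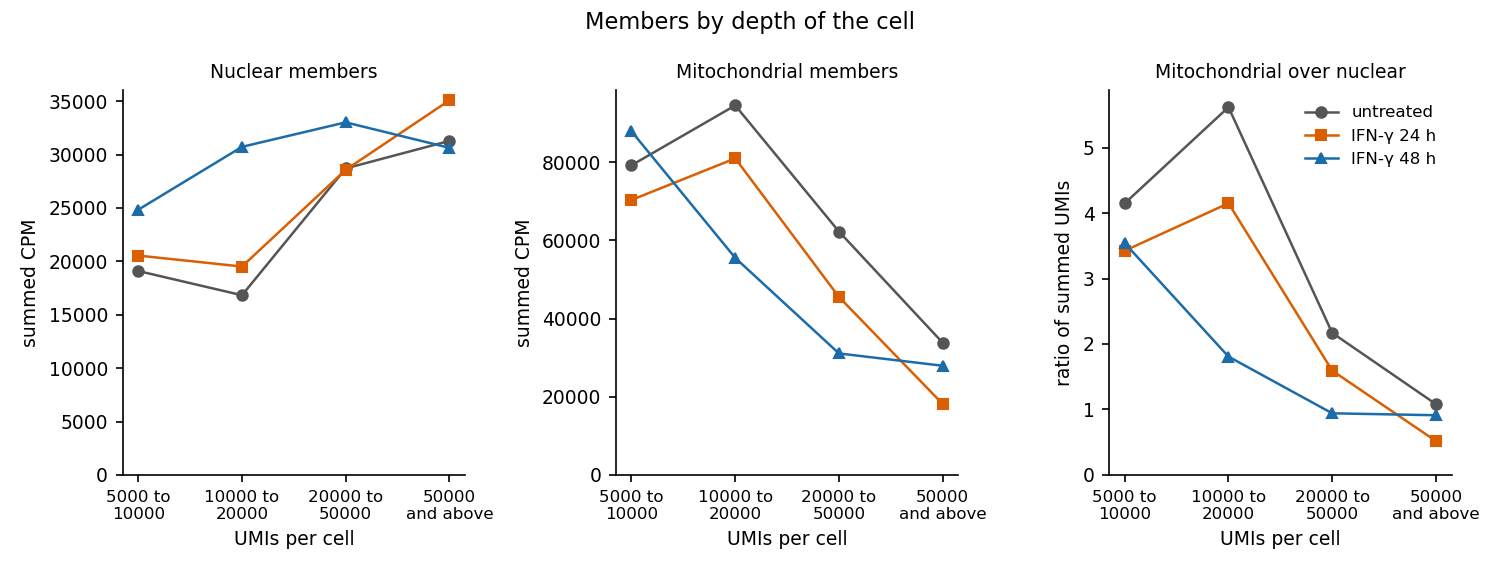
Summed CPM of nuclear members (left) and mitochondrial members (middle), and the ratio of their UMIs (right), in cells of 5000 to 10000, 10000 to 20000, 20000 to 50000 and at least 50000 UMIs, for the 3 libraries. The mitochondrial sum at 24 h lies under the untreated sum in all 4 bins, and the 48 h sum lies above untreated in the shallowest bin (87884 against 79203 CPM) and under it in the other 3. The ratio at 48 h lies under that at 24 h at 10000 to 20000 UMIs (1.81 against 4.15) and 20000 to 50000 UMIs (0.941 against 1.59). In the shallowest and deepest bins it lies above.

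By member, 12 of 13 mitochondrial genes lay below untreated in all 4 bins at 24 h, the exception being mt-Co1, at 0.01 in the shallowest. At 48 h 6 of 13 did so. mt-Atp8 ranged from -2.72 to -1.36 over the bins at 24 h and from -2.89 to -1.65 at 48 h, and mt-Cytb from -1.09 to -0.51 and from -1.85 to -0.86. Of the nuclear members, 32 lay above 0 in all bins at 24 h and 35 at 48 h. How many of all features kept to 1 side of 0 in all bins was not counted, so these counts have no share beside them. The medians of all features by bin ran from -0.23 to -0.08 at 24 h and from -0.41 to -0.02 at 48 h. Uqcrq ranged from 0.46 to 0.65 at 24 h and from 0.65 to 2.07 at 48 h. Cox7a1 was below 0 in all bins at 24 h (-1.88 to -0.67), and at 48 h it ranged from -3.36 to 0.07. It has the fewest UMIs of any member, so its values by bin rest on few counts. Atp5k was below 0 in all bins at 24 h (-1.04 to -0.39) and in all but that of 10000 to 20000 UMIs (0.45) at 48 h.

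For cell states, cells were clustered with all members and all mitochondrial genes removed from the matrix, so that the clusters did not use them. Of 9 clusters, 5 had enough markers to be named: G2/M-like, S phase-like, colonocyte-like, goblet-like and enteroendocrine-like. Cluster 0, led by Lrrc4, AY036118 and Angpt2, had 9 stem markers up but none among its 10 leading genes. It held 334 untreated cells, 181 at 24 h and 1354 at 48 h at a median of 15307, 15015 and 7271 UMIs, and it stayed unnamed, as did cluster 5, led by Ano3, Stox2 and Edn1, cluster 6, led by Selenbp1 and with 12 G2/M markers up, and cluster 8, led by Gm26917. Clusters with at least 20 cells in both libraries were compared.

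At 24 h the mitochondrial sum was below untreated in all 6 clusters compared. In colonocyte-like cells it was 49761 CPM in untreated cells and 22285 CPM at 24 h (log2 -1.16), in goblet-like cells 44487 and 22508 CPM (log2 -0.98), in S phase-like cells 28532 and 16090 CPM (log2 -0.83) and in G2/M-like cells 30061 and 16980 CPM (log2 -0.82). Cluster 0 stood at -0.53 and cluster 5 at -0.48. The 13 mitochondrial members were each below 0 in 6 of 6 clusters. The median of all features was below 0 in these clusters too, from -0.31 in goblet-like cells to -0.12 in cluster 0. The medians of the mitochondrial members there were -1.13 and -0.62. The nuclear sum was above untreated in the same clusters, from 0.07 in colonocyte-like cells to 0.39 in cluster 0. Colonocyte-like cells had the highest nuclear sum of the clusters in every library, with 39247 CPM untreated, 41245 CPM at 24 h and 39261 CPM at 48 h.

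At 48 h the clusters did not share a direction. The mitochondrial sum stood at -0.13 in colonocyte-like cells, -0.07 in G2/M-like cells, 0.06 in S phase-like cells, 0.18 in goblet-like cells, 0.22 in cluster 5 and -0.12 in cluster 0. In enteroendocrine-like cells, with 30 untreated cells and 21 at 48 h, it stood at -0.51, and the nuclear sum at 0.88. That cluster had only 13 cells at 24 h and was not compared there. The medians of all features at 48 h ran from -0.26 in cluster 0 to 0.03 in colonocyte-like cells. mt-Atp8 was below 0 in 7 of 7 clusters at 48 h (-2.40 to -1.48), as were mt-Cytb (-1.09 to -0.54) and mt-Nd4l (-1.17 to -0.59). Uqcrq was above 0 in every cluster at both times (0.41 to 0.94 at 24 h, 0.66 to 1.54 at 48 h), and Cox7a1 below 0 in every cluster (-2.39 to -0.88 and -1.93 to -0.28). The extremes for Cox7a1 rest on very few UMIs. It stood at 0.520 CPM in cluster 0 at 24 h, and at 4.38 CPM of 228398 UMIs in enteroendocrine-like cells at 48 h. Cox7a1 was highest in untreated colonocyte-like cells, at 34.2 CPM, beside 11.8 CPM there at 24 h and 10.4 CPM at 48 h.

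**Figure D5:**
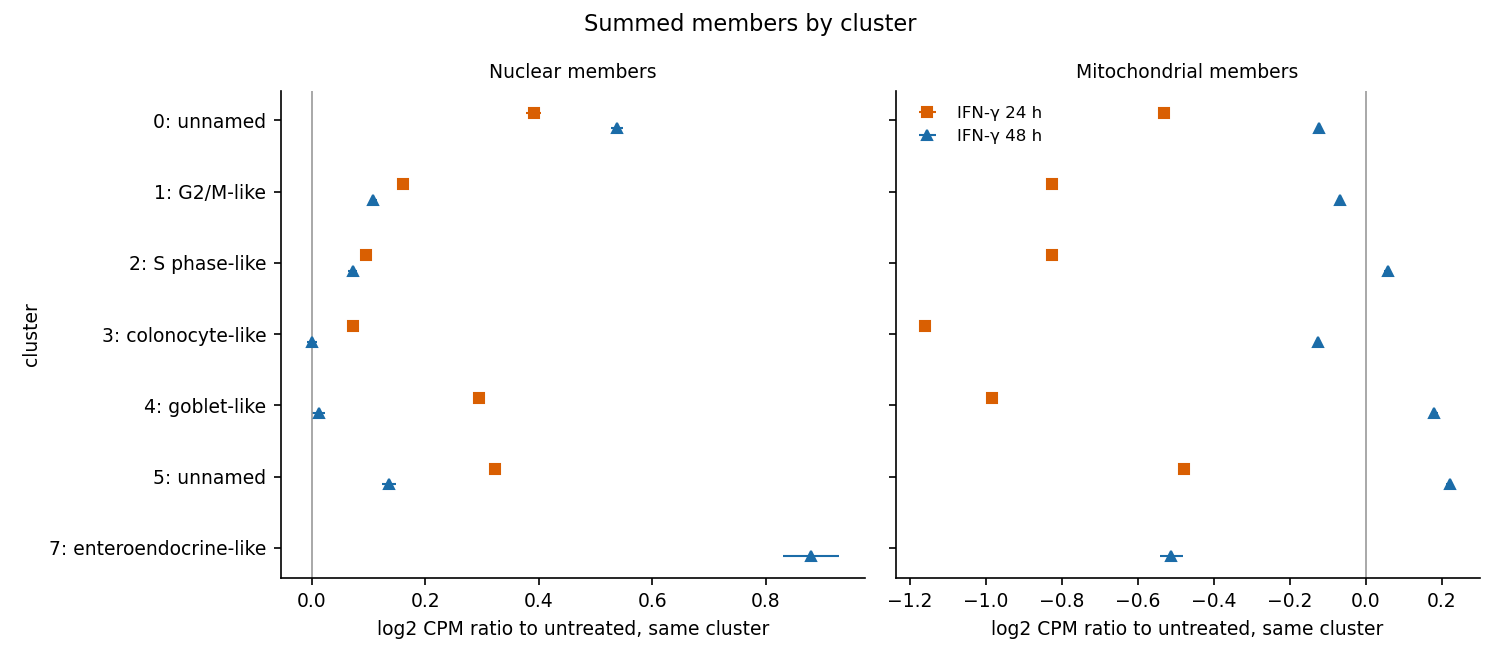
Log2 CPM ratio to untreated cells of the same cluster (horizontal axis) for summed nuclear (left) and mitochondrial (right) members, at 24 h (squares) and 48 h (triangles), with 95% counting intervals. All 6 squares of the mitochondrial panel lie between -1.16 and -0.48, while the triangles lie between -0.51 and 0.22. Enteroendocrine-like cells have no square because too few cells were found at 24 h.

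Cluster and UMIs per cell were then matched together. Depth shifted between the libraries within clusters too, so equal UMIs do not make cells alike. G2/M-like cells had a median of 88146, 100871 and 27134 UMIs, and colonocyte-like cells 43924, 47604 and 16427. A bin can thus set the shallow cells of the untreated library against typical cells at 48 h, and the part of this in the ratios was not tested. At 24 h the mitochondrial sum was below untreated in all 9 pairs of cluster and depth bin with enough cells, and the nuclear sum above untreated in 8. Above 50000 UMIs the mitochondrial log2 ratio at 24 h was -1.44 in colonocyte-like cells (65 untreated cells and 51 at 24 h), -0.97 in goblet-like cells (52 and 52), -0.79 in S phase-like cells (96 and 166), -0.78 in G2/M-like cells (124 and 224) and -0.30 in cluster 5 (38 and 39). At 20000 to 50000 UMIs colonocyte-like cells (63 and 24) stood at only -0.18, and their nuclear sum at -0.35, the 1 pair in which it was below untreated. Cluster 0 stood at -0.19, -0.18 and -0.55 from the shallowest bin to that of 20000 to 50000 UMIs. At 48 h the mitochondrial sum was below untreated in 8 of 10 pairs. The 2 above were colonocyte-like cells of 5000 to 10000 UMIs, at 0.45 (20 and 74), and cluster 0 in the same bin, at 0.037. Cluster 0 stood at -0.24 and -0.71 in its deeper bins. The cycling cells were close to untreated, with -0.05 in G2/M-like cells above 50000 UMIs (38 cells at 48 h) and -0.04 in S phase-like cells of 20000 to 50000 UMIs (26 untreated and 167 at 48 h). In the bin of 20000 to 50000 UMIs goblet-like cells stood at -0.68 (39 and 47) and colonocyte-like cells at -0.39 (63 and 83). At 10000 to 20000 UMIs they stood at -0.76 (29 and 71) and -0.88 (26 and 90), beside nuclear ratios of 1.12 and 0.999.

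Other genes of the pathway were taken from lists. The 4 subunits of complex II, succinate dehydrogenase, were below untreated at both times with scaling to the total (at 24 h TMM would turn the sign of Sdhb, Sdhc and Sdhd). At 24 h 0 of 4 were lower past 0.5, where 34.2% of all features were, and at 48 h 1 of 4, where 19.3% were. Their median at 24 h was -0.28, close to the -0.27 of all features, and at 48 h -0.45, beside -0.09 for all features. Sdha stood at log2 -0.48 and -0.38, Sdhb at -0.15 and -0.46 and Sdhc at -0.17 and -0.44. Sdhd, a membrane anchor, stood at 125.2, 96 and 50 CPM (log2 -0.38 and -1.32). Cycs, the soluble electron carrier cytochrome c, stood at 304.7, 569 and 425.4 CPM (log2 0.90 and 0.48), and Cyc1, the cytochrome c1 of complex III, at 405.4, 503.8 and 456 CPM (log2 0.31 and 0.17). AA467197, a relative of Ndufa4, stood at 141.6, 60.4 and 30.6 CPM (log2 -1.23 and -2.21), opposite in direction to Ndufa4, while Ndufa4l2 had 8, 60 and 17 UMIs.

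Mitochondrial ribosomal proteins, which make the subunits encoded in the organelle, were higher at 24 h as a sum. Their 78 genes summed to 8023 CPM without treatment and 10744 CPM at 24 h (log2 0.42) with 19 higher and 0 lower, and to 8762 CPM at 48 h (log2 0.13) with 6 higher and 5 lower. Of 13 genes for handling mitochondrial mRNA, 1 was higher at 24 h and 1 lower at 48 h. The 1 higher was Slirp, which stabilises these mRNAs, at 88.2, 145.5 and 122.5 CPM (log2 0.72 and 0.47), while its partner Lrpprc stood at 74.6, 62.8 and 89.6 CPM (log2 -0.25 and 0.26). Of 12 genes for mitochondrial DNA transcription and replication, 0 were higher and 1 was lower at each time, and Tfam, which packages that DNA, stood at 62.7, 71.3 and 46.6 CPM (log2 0.19 and -0.43). Of 8 biogenesis regulators, 1 was lower at 24 h, Ppargc1a (PGC-1α), at 23.5, 14.9 and 24.1 CPM (log2 -0.66 and 0.04), and at 48 h 1 was higher and 1 lower. Of 18 complex IV assembly genes none passed 0.5 at 24 h, and at 48 h 1 was higher and 3 were lower. Of 13 assembly genes for complexes II, III and V, 1 was higher and 1 lower at 24 h and none passed 0.5 at 48 h. Of 7 carriers and uncoupling proteins, 1 was higher at 24 h and 1 lower at 48 h. Of all features, 7.61% were higher and 34.2% lower at 24 h, and 9.18% and 19.3% at 48 h. The counts of 1 to 3 in the lists of 7 to 18 genes are too small to set apart from these shares.

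Promoters were described for the nuclear members, since they moved apart from the mitochondrial ones. RefSeq promoters on GRCm38.p6, from 250 bases before to 50 bases after the start, matched 69 of the 83. Both strands were searched, in the first listed promoter of each gene. The set of all promoters takes every gene with a RefSeq promoter, expressed here or not, while the members had at least 500 UMIs. The NRF1 core CGCATGCG was found in 10 of 69 promoters (14.5%) and in 1.91% of all 27025 promoters, the YY1 motif AAGATGGCG in 7 (10.1%, against 1.49%) and the ETS motif CCGGAAG in 16 (23.2%, against 9.12%). The oestrogen-related receptor motif TCAAGGTCA was in 1 (1.45%, against 0.407%), and the interferon-activated site TTCNNNGAA in 4 (5.80%, against 8.47%). A match is a description of these letters and no evidence of binding. Stretches of 30 bases are shown for 4 members chosen for their ratios, 5' to 3' along the strand of the gene, with the motif in capitals.
Atp5k, NRF1, chr5:108434430-108434459, minus strand: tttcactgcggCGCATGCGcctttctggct
Atp5g2, NRF1, chr15:102671070-102671099, minus strand: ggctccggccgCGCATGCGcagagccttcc
Ndufaf8, YY1, chr11:120098934-120098963, plus strand: ggcagggcccAAGATGGCGgcgccctcgag
Ndufs6, YY1, chr13:73328433-73328462, minus strand: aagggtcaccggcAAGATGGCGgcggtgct

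Over all 69 members, the median log2 ratio at 24 h was 0.20 with the NRF1 core and 0.27 without it, and 0.32 with the YY1 motif and 0.20 without it. At 48 h it was -0.014 with the NRF1 core and 0.056 without it, and 0.16 with the YY1 motif and 0.023 without it. Past 0.5 at 48 h, 2 of the 10 members with the NRF1 core were lower and 0 higher, and of the 7 with the YY1 motif 1 was higher and 0 lower. Of all features 19.3% were lower and 9.18% higher, and counts this small cannot be set apart from those shares. The 4 members printed were picked by their ratios, so their motifs bear on no direction.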

How the data were processed

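The authors made 3' v3 libraries (10x Genomics), mapped them to mm10 with Cell Ranger 6.0.1 and deposited UMI counts per gene and barcode, not normalised. The annotation release is not given in the sources used here. The authors' filter was applied (at least 5000 UMIs and 400 genes, at most 15% mitochondrial UMIs). Doublets were not called. Per library, UMIs of all kept cells were added up per gene and divided by their total (CPM). Ratios have exact conditional binomial intervals and summed counts exact Poisson intervals, at 95%, for counting error only. Checks on simulated data were run first. Cells were clustered in Seurat 5.3.0 (CCA over 30 dimensions, 2000 variable genes, 20 principal components, resolution 0.5), in R 4.3.3, and TMM factors came from edgeR 4.0.16. A cluster was named when at least 3 markers of a list had a log2 fold of 0.5 and at least 1 was among its 10 leading genes. This last condition was set after clusters had been seen, and it left cluster 0, with 9 stem markers up, and cluster 6, with 12 G2/M markers up, unnamed. Genes with near-identical pseudogenes may lose reads in counting, and those values are uncertain. The genes named were all mitochondrial members, per nuclear group the 2 highest in level and the highest and lowest in ratio at each time, the paralogs, the symbols nearest the minimum, and other list genes past a log2 ratio of 1 with all of complex II; Uqcrc1, Ndufa1, Ndufa3, Cycs, Cyc1, Slirp, Lrpprc, Tfam and Ppargc1a were added after their values were seen. Members and lists were chosen with earlier results of these data known. Alternatives were other scalings, depths, filters, member minima and clusterings.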

Additional observations from a re-analysis of the deposited data

Results flagged for a closer look

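The mitochondrial members were lower than untreated at 24 h and higher at 48 h as a sum, with a log2 ratio of 48 h over 24 h of 1.13, and this opposite direction was not tested, since each time is 1 library. The direction at 48 h turned in 5 of 12 alternatives (lowest -0.46), of which the member minima could not change it. In 3 of 4 depth bins the sum was below untreated at 48 h, against the higher value of the whole library. Single genes were also lower than untreated at 24 h and higher at 48 h over whole libraries. Their log2 ratios of 48 h over 24 h were 1.24 for mt-Atp6, 0.94 for mt-Co1, 1.01 for mt-Co2, 1.40 for mt-Co3, 1.26 for mt-Nd1, 1.31 for mt-Nd2 and 1.67 for mt-Nd3. At 48 h mt-Co3 and mt-Nd3 were below untreated in 2 of 4 depth bins and the other 5 genes in 3 of 4, and mt-Co1 stood at 0.026 over the library. At 10000 to 20000 UMIs the 48 h mitochondrial sum was below the 24 h sum (55521 against 80967.5 CPM). At 20000 to 50000 UMIs it was so too (31076 against 45519.5 CPM). In both bins each of these genes but mt-Nd3 was also lower at 48 h than at 24 h. Of the nuclear members, Atp5g2 (-0.83), Ndufc2 (-0.62) and Uqcrfs1 (-0.68) were above untreated at 24 h and below it at 48 h, again untested. Ndufc2 did so by little (-0.11). It was above untreated at 48 h with cells thinned to 5000 UMIs (0.096), under TMM (0.074) and in all but 1 of 4 depth bins, and Atp5g2 and Uqcrfs1 were each below in 3 of 4.

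Barcodes under 2000 UMIs, which no comparison used, held more of both sets at 48 h than in the untreated library, with 48369 against 43838 CPM of nuclear members and 2533 against 2103 CPM of mitochondrial members.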

How the results depend on the processing

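The 24 h directions of both sums held under every alternative run, and the nuclear sum was above untreated at 48 h in all of them. The mitochondrial sum at 48 h changed sign in 5 of 12. Among the 12, the member minima of 1 and 2000 UMIs could not change it, since the scarcest mitochondrial member, mt-Nd6, had 9302 UMIs. Values are given in the order nuclear 24 h, nuclear 48 h, mitochondrial 24 h and mitochondrial 48 h, the reported log2 ratios being 0.21, 0.054, -1.02 and 0.11. With TMM scaling they were 0.66, 0.24, -0.57 and 0.30, with 60 and 1 nuclear members higher and lower past 0.5 at 24 h, 14 and 3 at 48 h, and for mitochondrial members 0 and 10, then 2 and 2, beside 27.3% and 12.8% and then 16.3% and 12.4% of all features. With the total without mitochondrial UMIs they were 0.18, 0.060, -1.05 and 0.11, with 3 and 2 nuclear members higher and lower past 0.5 at 24 h, 4 and 7 at 48 h, and for mitochondrial members 0 and 13, then 1 and 3, beside 6.84% and 36.6% and then 9.33% and 19.1% of all features. With cells thinned to 5000 UMIs they were 0.25, 0.17, -0.76 and 0.056, with 10 and 1 nuclear members higher and lower past 0.5 at 24 h, 13 and 3 at 48 h, and for mitochondrial members 0 and 13, then 0 and 3, beside 10.4% and 31.5% and then 9.25% and 23.9% of all features. With cells thinned to 10000 UMIs they were 0.25, 0.27, -0.84 and -0.46, with 10 and 2 nuclear members higher and lower past 0.5 at 24 h, 20 and 5 at 48 h, and for mitochondrial members 0 and 13, then 0 and 6, beside 9.19% and 32.6% and then 9.24% and 28.8% of all features. With a minimum of 2000 UMIs they were 0.17, 0.11, -0.92 and 0.11, with 1 and 2 nuclear members higher and lower past 0.5 at 24 h, 6 and 5 at 48 h, and for mitochondrial members 0 and 13, then 1 and 3, beside 7.26% and 31% and then 8.12% and 21.1% of all features. With a minimum of 10000 UMIs they were 0.21, 0.11, -1.03 and -0.21, with 9 and 2 nuclear members higher and lower past 0.5 at 24 h, 5 and 6 at 48 h, and for mitochondrial members 0 and 13, then 0 and 5, beside 7.45% and 34.1% and then 8.62% and 21.4% of all features. With a maximum of 10% mitochondrial UMIs they were 0.16, 0.036, -0.85 and 0.13, with 2 and 3 nuclear members higher and lower past 0.5 at 24 h, 2 and 7 at 48 h, and for mitochondrial members 0 and 13, then 1 and 3, beside 6.91% and 30.7% and then 9.88% and 18.9% of all features. With no maximum of mitochondrial UMIs they were 0.25, 0.088, -1.20 and -0.096, with 11 and 2 nuclear members higher and lower past 0.5 at 24 h, 5 and 7 at 48 h, and for mitochondrial members 0 and 13, then 0 and 5, beside 8.24% and 35.5% and then 8.92% and 19.9% of all features. With clusters 0 and 8 left out they were 0.15, 0.064, -0.95 and -0.070, with 2 and 3 nuclear members higher and lower past 0.5 at 24 h, 5 and 7 at 48 h, and for mitochondrial members 0 and 13, then 0 and 5, beside 7.11% and 31.2% and then 9.68% and 19.8% of all features. With cells of at least 20000 UMIs they were 0.17, 0.085, -0.995 and -0.36, with 3 and 2 nuclear members higher and lower past 0.5 at 24 h, 4 and 7 at 48 h, and for mitochondrial members 0 and 13, then 0 and 5, beside 7.15% and 32.1% and then 9.27% and 21.6% of all features. At a log2 ratio of 1 in place of 0.5 the counts were 0 and 1 nuclear at 24 h, 0 and 1 at 48 h, 0 and 8 mitochondrial at 24 h and 0 and 1 at 48 h, beside 2.57% and 11.4% and then 3.46% and 6.71% of all features. Members with at least 1 UMI gave 4 nuclear members lower at 24 h, and those with at least 2000 UMIs gave 1. At resolution 0.3 the mitochondrial log2 ratio by cluster ran from -0.97 to -0.52 at 24 h and from -0.51 to 0.19 at 48 h, and the nuclear one from 0.13 to 0.38 and from -0.0014 to 0.88. At resolution 1 the mitochondrial log2 ratio by cluster ran from -1.25 to -0.081 at 24 h and from -0.51 to 0.19 at 48 h, and the nuclear one from 0.015 to 0.70 and from -0.056 to 0.88. With members and mitochondrial genes kept in the clustering the mitochondrial log2 ratio by cluster ran from -1.29 to -0.49 at 24 h and from -0.51 to 0.23 at 48 h, and the nuclear one from 0.043 to 0.40 and from 0.00089 to 0.88. Without integration most untreated cells fell in clusters with almost no treated cells, while 24 h and 48 h cells shared several clusters. The 1 cluster left to compare at 24 h stood at -0.090 for mitochondrial and 0.089 for nuclear members, with none at 48 h. Leaving out the clusters and keeping cells of at least 20000 UMIs were chosen after seeing the data. The medians per cell stayed within the reported quartiles. The complex ratios at 24 h kept their sign in all 60 nuclear and 48 mitochondrial values, where the member minima could not change the mitochondrial ones. At 48 h 7 of 60 nuclear and 13 of 48 mitochondrial values turned sign. The cause of these changes was not tested.

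No paired analysis was possible because each condition has 1 library. For the same reason the spread between cultures is unknown and no value has a test. The 48 h library is the shallowest per cell, so its values rest most on the depth at which cells are compared. Cox7a1, with 926 UMIs, is the member with the fewest.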
